A study of Mus musculus with 4 samples.

Results

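The genes described here are 10 genes of resting astrocytes, Aqp4, Slc1a2, Slc1a3, Gja1, Gjb6, Aldoc, Glul, Kcnj10, Aldh1l1 and Slc4a4, chosen by symbol out of 32285 genes in the deposited tables. Astrocytes clear the glutamate that synapses release, chiefly through the transporters Slc1a2 and Slc1a3, and Glul (glutamine synthetase) turns it into glutamine. Their processes end in endfeet on blood vessels and under the pia, where the water channel Aqp4 and the inwardly rectifying potassium channel Kcnj10 are concentrated, and the gap junction proteins Gja1 and Gjb6 couple the cells into a network. Aldoc is a glycolytic aldolase, Aldh1l1 a folate enzyme widely used as an astrocyte marker, and Slc4a4 a sodium bicarbonate cotransporter. Around a lesion, astrocytes become reactive and make more of the intermediate filament proteins Gfap and Vim.

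Expression was measured on 4 Visium capture areas, which count mRNA molecules by unique molecular identifiers (UMIs) in spots on a hexagonal grid over fresh frozen brain tissue. Each area carried 2 slices, 8 in all, and the methods name 8 mice. A WT mouse at rest shared an area with a WT mouse 2 days after photothrombotic (PT) injury of the cortex (2 dpi), 2 WT mice at 7 dpi shared another, 2 WT mice at 21 dpi were on an area of their own, as were 2 Cthrc1(creER); R26(DTA) mice at 21 dpi. In these deleter mice a tamoxifen-activated Cre under Cthrc1, a gene of myofibroblasts, switches on diphtheria toxin A, and the study set them aside after the first clustering because no deletion could be detected. The methods give young adults of both sexes as the general rule for the study's mice and no separate age for these. Since every time after 2 dpi lies on a capture area of its own, time and area cannot be told apart between 7 and 21 dpi.

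Over tissue there were 827 to 1726 spots and 11332780 to 23677298 UMIs per slice, with a median of 12447 to 16158 UMIs per spot except at 2 dpi, where the median was 2633.5 and 21.7% of spots held fewer than 1000 UMIs. Spots with at least 5 Col1a1 UMIs per 10000 were called fibrotic, Col1a1 being the collagen gene of fibroblasts. Ring spots lay at a distance of 1 or 2 grid steps from a fibrotic spot, middle spots at 3 or 4, and far spots at 5 or more. The slices at 7 dpi held 112 and 392 fibrotic spots, those at 21 dpi 170 and 203, and the deleter slices 193 and 274, whereas the slice at rest had 3. At 7 dpi the median UMIs per spot were 4923.5 and 9206.5 in fibrotic, 8805.5 and 13599 in ring and 16802.5 and 18063 in far spots. At 21 dpi they were 10828 and 13879, 12021.5 and 13551, and 13045.5 and 12827. Zones thus differed more in depth at 7 than at 21 dpi, and the part of this in the levels was not tested. Fibrotic spots also include a band along the brain surface, as the maps of the zones show. Without edge spots, which lie at the border of the tissue, 35 of the 112 fibrotic spots of 7 dpi slice 1 remained and 320 of the 392 of slice 2. At 21 dpi 111 of 170 and 156 of 203 remained. The fibrotic spots of 7 dpi slice 1 were thus mostly edge spots. Levels are UMIs of a gene per 10000 UMIs of all genes in the summed spots of a zone. A lower level can thus mean fewer astrocytes, less RNA of the gene per astrocyte or more RNA from other cells. These cannot be told apart in such spots. UMIs were not scaled for transcript length, and levels are compared between zones and slices for 1 gene at a time.

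The start regions of members with different courses around the lesion are shown for reference. Windows of 250 bases before the RefSeq start (GRCm38.p6) were read for 9 members and searched on both strands for an NFI half-site (TTGGCA), a STAT site (TTCNNNGAA) and 2 SOX forms (ACAAAG and ACAATG), which 12.3%, 7.02%, 16.5% and 10.7% of 32851 promoters hold. A match is a description of letters and not of binding. Matches were found only in Slc1a3 and Aldoc, and Aqp4 is the member without a window. Aldoc, which is not shown, has an NFI half-site 146 bases before a RefSeq start and STAT matches 124 and 83 bases before another. Shown are Slc1a3, which has a STAT match 96 bases before its start (in capitals), and the connexin genes Gja1 and Gjb6 and the channel gene Kcnj10, which have no match to these letters in this window. Each window shown overlaps no annotated exon. They lie at chr15:8710808-8711057 (Slc1a3, minus strand), chr10:56377050-56377299 (Gja1, plus strand), chr14:57133612-57133861 (Gjb6, minus strand) and chr1:172340960-172341209 (Kcnj10, plus strand).
Slc1a3: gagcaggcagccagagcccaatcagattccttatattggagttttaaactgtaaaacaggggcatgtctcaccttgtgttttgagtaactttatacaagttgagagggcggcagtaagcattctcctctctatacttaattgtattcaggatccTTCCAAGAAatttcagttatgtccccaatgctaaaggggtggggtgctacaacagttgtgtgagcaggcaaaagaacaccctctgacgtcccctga
Gja1: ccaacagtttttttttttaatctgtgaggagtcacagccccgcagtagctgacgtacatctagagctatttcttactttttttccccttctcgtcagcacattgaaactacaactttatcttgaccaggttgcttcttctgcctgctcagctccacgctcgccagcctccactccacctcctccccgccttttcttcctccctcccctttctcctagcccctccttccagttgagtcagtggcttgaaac
Gjb6: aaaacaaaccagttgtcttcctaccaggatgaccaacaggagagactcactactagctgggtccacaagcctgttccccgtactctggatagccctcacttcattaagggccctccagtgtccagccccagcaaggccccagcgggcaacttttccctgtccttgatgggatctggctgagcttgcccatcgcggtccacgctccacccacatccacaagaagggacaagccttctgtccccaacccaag
Kcnj10: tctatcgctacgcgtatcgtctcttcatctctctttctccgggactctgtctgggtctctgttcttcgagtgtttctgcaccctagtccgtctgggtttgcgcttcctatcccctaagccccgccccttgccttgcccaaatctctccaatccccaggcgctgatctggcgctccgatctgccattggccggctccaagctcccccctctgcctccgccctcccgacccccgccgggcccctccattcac

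The members did not move as a block around the lesion. At 7 dpi, 6 of the 10 were lower in fibrotic than in far spots and none was higher, and 6 were lower in the ring. Of all genes, 24.3% were lower and 25.4% higher in fibrotic spots, and 11.2% lower and 14.6% higher in the ring. At 21 dpi, Aqp4, Gja1 and Gjb6 were higher in fibrotic spots while Slc1a2 and Aldoc were lower, and in the ring Aqp4, Slc1a3 and Gja1 were higher and none was lower. The shares of all genes then were 26.3% lower and 29.7% higher in fibrotic spots, near the members' counts, and 5.42% and 10.9% in the ring. Summed over the 10 genes, the level in far spots was 52.3 and 47.0 UMIs per 10000 at 7 dpi and 41.5 and 36.2 at 21 dpi, against 22.2 and 23.0, and 31.5 and 28.8, in fibrotic spots. The fibrotic values lay below the far values in each of the 4 slices. Slc1a2 weighs most in this sum, at 37.9% and 39.5% of it over the whole slices at 21 dpi. The lower sum at 21 dpi thus does not mean that most members were lower. In fibrotic spots then, 4 members had a log2 fold change below 0 and 6 above 0. Zones were compared with edgeR's quasi-likelihood test on summed UMIs, with the slice as a block and 2 slices per time, and p-values were adjusted by Benjamini-Hochberg over 14158 genes.

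**Figure D1:**
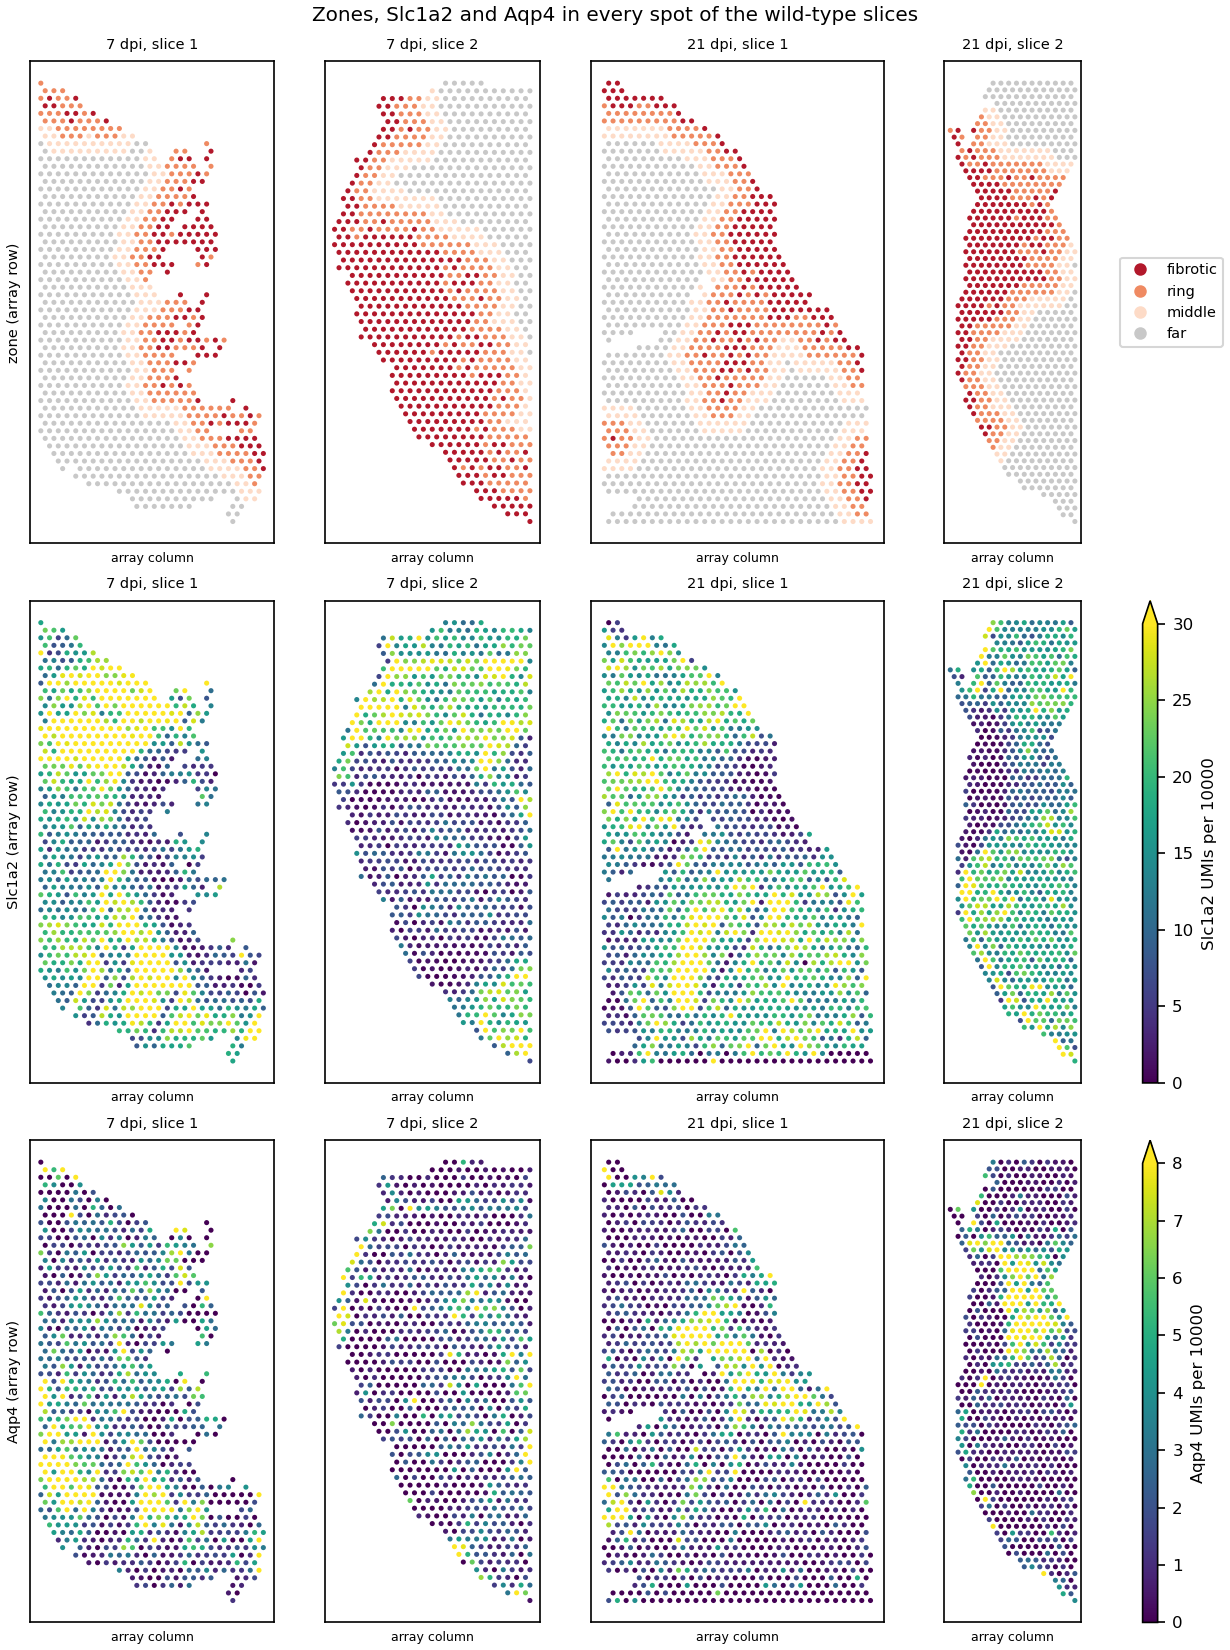
Zone (top), Slc1a2 (middle) and Aqp4 (bottom) in each spot of the 4 wild-type slices, at its array row and column, as UMIs per 10000 with values above the top of the scale in the top colour. Slc1a2 was low over the fibrotic spots at both times, whereas Aqp4 was high in a band at the border of the fibrotic spots at 21 dpi, where ring levels were 3.49 and 3.94 UMIs per 10000.

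Aqp4, the endfoot water channel, was higher at the lesion than in far spots at 21 dpi and passed no test there at 7 dpi. At 7 dpi its level in far, ring and fibrotic spots was 3.18, 2.60 and 1.90 UMIs per 10000 in slice 1 and 1.68, 1.57 and 1.47 in slice 2. At 21 dpi the same zones stood at 1.31, 3.49 and 3.29 in slice 1 and at 0.676, 3.94 and 3.85 in slice 2. Both zones at the lesion thus exceeded far spots in each slice at 21 dpi and in neither slice at 7 dpi. The log2 fold change against far spots at 21 dpi was 2.01 (SE 0.28, adjusted p = 4.8e-05) in fibrotic spots and 1.96 (SE 0.28, adjusted p = 0.0006) in the ring, and at 7 dpi it was -0.37 (SE 0.27, adjusted p = 0.28) and -0.17 (adjusted p = 0.69). The difference between these fold changes, tested as an interaction in edgeR, was 2.38 (SE 0.39, adjusted p = 0.035) in fibrotic spots and 2.13 (SE 0.38, adjusted p = 0.077) in the ring. Far spots entered this difference too, since Aqp4 there was higher in both 7 dpi slices than in either 21 dpi slice. The summed level of 10 oligodendrocyte (myelin) genes had a median over spots of 82.8, 71.1, 63.8 and 42.5 UMIs per 10000 in far spots of these 4 slices and of 43.6, 44.8, 36.8 and 72.5 in the ring. In spots at or under their slice's median of these genes, the ring value at 21 dpi was 1.15 (adjusted p = 0.020) and the fibrotic difference between times 1.29 (adjusted p = 0.24).

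Kcnj10, which carries potassium into the same endfeet, did not follow Aqp4. Its level at 7 dpi was 2.44 and 2.34 UMIs per 10000 in far spots, 1.45 and 1.32 in the ring and 1.09 and 0.869 in fibrotic spots. It fell by 1.24 on the log2 scale in fibrotic spots (SE 0.16, adjusted p = 5.5e-05) and by 0.76 in the ring (SE 0.16, adjusted p = 0.0038). At 21 dpi it was 1.64 and 1.41 in far spots, 1.36 and 1.93 in the ring and 1.10 and 1.16 in fibrotic spots, and neither zone passed the test (fibrotic -0.33, adjusted p = 0.089). Of 8 genes listed for the perivascular endfoot scaffold, which include Aqp4 and Kcnj10, 4 were lower and 0 higher in fibrotic spots at 7 dpi and 1 lower and 4 higher at 21 dpi. Of all genes, 24.3% were lower and 25.4% higher at 7 dpi and 26.3% and 29.7% at 21 dpi.

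Slc1a2, the main glutamate transporter of the forebrain, was the member with the most UMIs and was lower in fibrotic spots at both times. Its level in far and fibrotic spots was 21.1 and 6.60 UMIs per 10000 in slice 1 and 18.6 and 7.52 in slice 2 at 7 dpi, and 17.2 and 7.73, and 17.3 and 6.90, at 21 dpi. It fell by 1.41 on the log2 scale at 7 dpi (SE 0.19, adjusted p = 7.4e-05) and by 1.14 at 21 dpi (SE 0.19, adjusted p = 0.00023). In the ring it stood at 9.46 and 12.4 at 7 dpi, below far spots in both slices (-0.83, SE 0.19, adjusted p = 0.0071), and at 14.2 and 15.1 at 21 dpi, where the fold change of -0.24 did not pass the test (adjusted p = 0.44).

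Slc1a3, the other glutamate transporter, had a different course. At 7 dpi its level was 4.17 and 4.2 UMIs per 10000 in far spots, 3.27 and 2.79 in the ring and 1.97 and 1.99 in fibrotic spots. At 21 dpi it was 3.53 and 2.98 in far spots, 5.18 and 5.60 in the ring and 3.44 and 3.80 in fibrotic spots. It fell by 1.00 on the log2 scale in fibrotic spots at 7 dpi (SE 0.18, adjusted p = 0.00048) and rose by 0.73 in the ring at 21 dpi (SE 0.17, adjusted p = 0.012). The change between times missed the threshold in both zones (1.25, adjusted p = 0.063, and 1.18, adjusted p = 0.096). Glul, which uses the glutamate taken up, was lower at 7 dpi in fibrotic spots (-0.62, SE 0.15, adjusted p = 0.0038) and in the ring (-0.53, SE 0.15, adjusted p = 0.02). At 21 dpi Glul ran from 4.85 to 6.78 UMIs per 10000 over these zones and slices, and its far, ring and fibrotic levels overlapped.

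The connexin genes were, beside Aqp4, the members that rose in fibrotic spots at 21 dpi. Gjb6 was at 0.613 and 0.442 UMIs per 10000 in far spots and 2.10 and 0.981 in fibrotic spots at 21 dpi, and at 0.761 and 0.704 against 0.697 and 0.660 at 7 dpi. Fibrotic spots exceeded far spots in both slices at 21 dpi and lay slightly below them in both at 7 dpi. The log2 fold change was 1.59 (SE 0.21, adjusted p = 3.8e-05) at 21 dpi and -0.05 (SE 0.22, adjusted p = 0.88) at 7 dpi, with a difference between times of 1.63 (adjusted p = 0.054). Gja1 stood at 1.51 and 1.09 in far, 1.90 and 2.39 in ring and 2.47 and 1.90 in fibrotic spots at 21 dpi, with fold changes of 0.73 in the ring (SE 0.21, adjusted p = 0.033) and 0.85 in fibrotic spots (SE 0.21, adjusted p = 0.004). At 7 dpi Gja1 was lower in the ring (1.16 and 1.11 against 2.24 and 1.71 in far spots, log2 fold change -0.76, SE 0.22, adjusted p = 0.021), and its fibrotic level of 1.44 and 1.73 overlapped that of far spots.

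Leptomeningeal fibroblasts also use connexins, and at 21 dpi their markers were higher in the same fibrotic spots as Gjb6. The summed level of 10 leptomeningeal markers was 20.5 and 13.9 UMIs per 10000 in far and 101.6 and 61.8 in fibrotic spots at 21 dpi, against 11.9 and 9.7, and 17.9 and 22.7, at 7 dpi, and none of the 10 markers was at 0 in any of these slices. All 10 rose in fibrotic spots at 21 dpi, and 8 rose at 7 dpi, where Gjb6 did not pass the test. Gjb2, a connexin gene of leptomeningeal cells and of astrocytes, had log2 fold changes of 3.78 at 21 dpi and 2.52 at 7 dpi in fibrotic spots. With spots at or under the median leptomeningeal level of their zone and slice, a setting chosen after seeing the data, the fold change of Gjb6 at 21 dpi was 0.95 (adjusted p = 0.0092) and that of Gja1 0.85 (adjusted p = 0.015). At rest the 3 spots with at least 5 Col1a1 UMIs per 10000 had 9.45 UMIs of Gjb6 per 10000 against 0.495 in far spots, with 381 against 9.67 of the leptomeningeal markers. What part these cells have in the level of Gjb6 beyond these values was not tested.

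Of the metabolic members, Aldoc was lower in fibrotic spots at both times. It stood at 8.39 and 8.56 UMIs per 10000 in far spots and 2.5 and 3.09 in fibrotic spots at 7 dpi, and at 7.44 and 6.0 against 3.90 and 3.43 at 21 dpi. It fell by 1.52 on the log2 scale at 7 dpi (SE 0.16, adjusted p = 1e-05) and by 0.77 at 21 dpi (SE 0.15, adjusted p = 0.00084). In the ring Aldoc fell by 0.94 at 7 dpi (SE 0.15, adjusted p = 0.00095), and at 21 dpi its fold change was 0.01. Slc4a4 fell at 7 dpi in fibrotic spots (-0.96, SE 0.17, adjusted p = 0.00053) and in the ring (-0.93, SE 0.17, adjusted p = 0.0017), from 1.77 and 1.11 UMIs per 10000 in far spots to 0.683 and 0.743 in the ring. Aldh1l1 passed the test in none of these 4 comparisons, with fold changes of -0.29 to 0.22 and 0.367 to 1.34 UMIs per 10000 over the zones of the 4 wild-type slices.

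**Figure D2:**
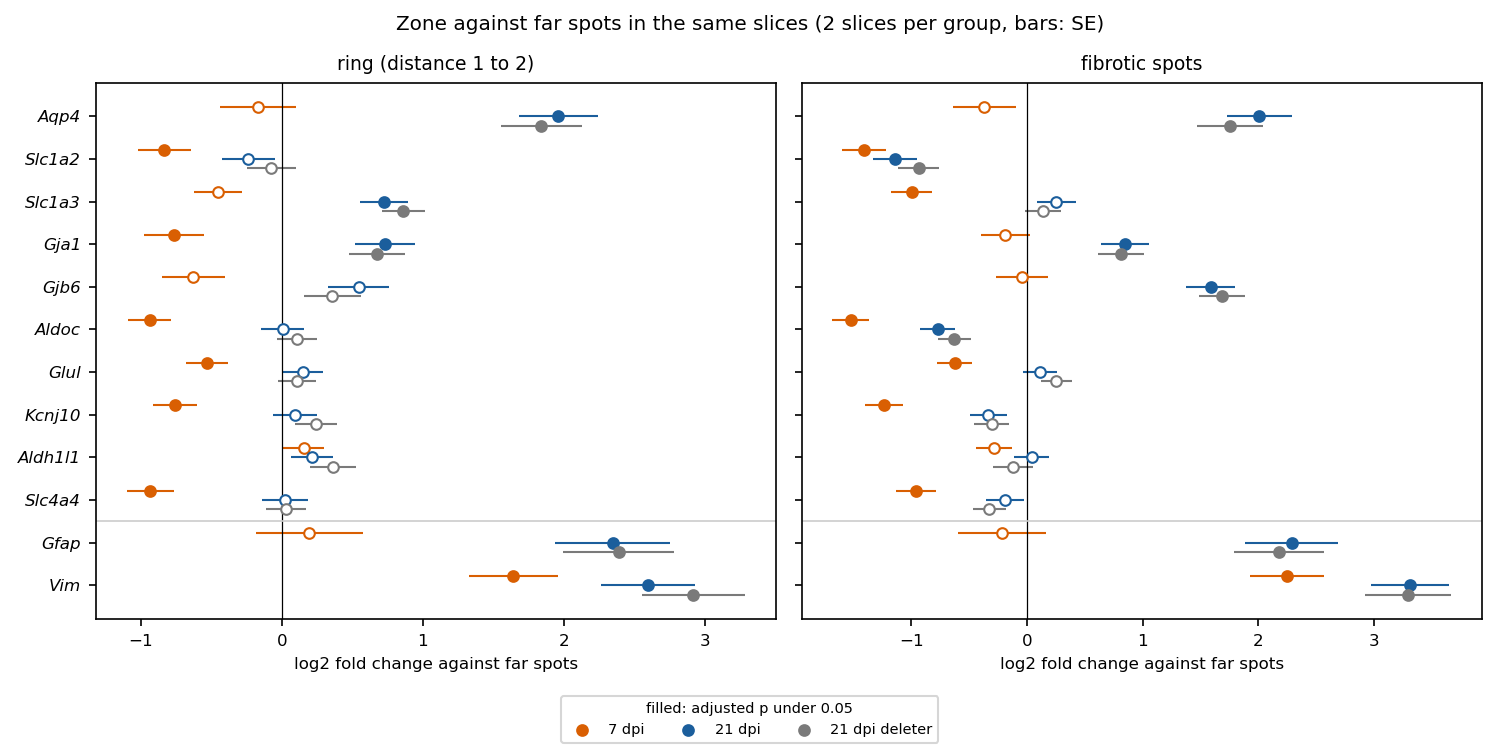
Log2 fold change of each member, and of Gfap and Vim, in ring (left) and fibrotic spots (right) against far spots of the same slices, with bars for the SE and filled points where the adjusted p was under 0.05 (2 slices per group). Points at 7 dpi lie at or left of 0 for 9 of the 10 members in the ring and for all 10 in fibrotic spots, and Aqp4 at 21 dpi lies at 1.96 and 2.01.

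Many genes differ between these zones, and the members' counts are read against that. In fibrotic spots, 24.3% of all genes tested were lower and 25.4% higher at 7 dpi, against 6 lower and 0 higher of 10 members. At 21 dpi 26.3% were lower and 29.7% higher, against 2 lower and 3 higher of the members. The members' fibrotic counts at 21 dpi thus lay near these shares. In the ring, 11.2% were lower and 14.6% higher at 7 dpi (members 6 and 0), and 5.42% lower and 10.9% higher at 21 dpi (members 0 and 3). The members' median log2 fold change was -0.79 in fibrotic spots and -0.69 in the ring at 7 dpi, where that of all genes was -0.03 and -0.04, and 0.08 and 0.18 at 21 dpi, where that of all genes was 0.04 and 0.02. For the difference between times, 0.0212% of genes were called lower and 0.17% higher in fibrotic spots and 0% and 0.0212% in the ring. Aqp4 was the 1 member called in fibrotic spots, and all 10 members had a positive difference there. In the ring edgeR called none of the members, and DESeq2 called 4 of them among 64 genes in all. At an unadjusted p under 0.05 in edgeR there were 9 members. All genes past that level were not counted, so the 9 have no background to be read against.

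Fewer ring calls were made when 1 slice was left out, which leaves a single slice at that time that is assumed to vary like the others and lowers the power of the test. Without 7 dpi slice 1 only Aldoc of the 6 ring calls passed, and the other 5 had fold changes of -0.82 (Kcnj10) to -0.54 (Glul). Without 7 dpi slice 2 Slc1a2, Aldoc and Slc4a4 passed, and Gja1, Kcnj10 and Glul had -0.85, -0.64 and -0.45. At 21 dpi without slice 2 Aqp4 passed (1.45), and Slc1a3 and Gja1 had 0.59 and 0.37. With the minimum for a fibrotic spot lowered to 2 Col1a1 UMIs per 10000, the ring had 0 calls at 7 dpi and 1, Aqp4, at 21 dpi, and in spots low in myelin genes it had 2 and 1.

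Distance from the fibrotic spots gave a finer view of the same levels. At 7 dpi Aqp4 was highest at a distance of 4 steps in both slices, at 4.51 and 2.70 UMIs per 10000, and Slc1a3 at 4 steps in slice 1 (7.16) and 5 to 6 in slice 2 (5.81). At 21 dpi, with all fibrotic spots taken as 1 class, both genes were highest next to them, at a distance of 1 step, with 4.28 and 4.93 for Aqp4 and 5.87 and 6.21 for Slc1a3. The reactive marker Gfap had its highest level at the same distances at 21 dpi (1 step in both slices, 11.3 and 18.6). At 7 dpi it was highest at 3 steps (15.1) and 5 to 6 steps (12.7). Vim, the other reactive marker, was instead highest in fibrotic spots, at 15.2 and 13.2 (7 dpi) and 15.1 and 11.6 (21 dpi). In the deleter slices Aqp4, Slc1a3 and Gfap were again highest at a distance of 1 step in both. Vim was highest at 1 step in deleter slice 1 (16.1) and in fibrotic spots in deleter slice 2 (10.3). Slc1a2 had no such peak near the fibrotic spots in the wild-type slices, where its highest level lay 4 or more steps away in all 4. These positions are a description, with no test.

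**Figure D3:**
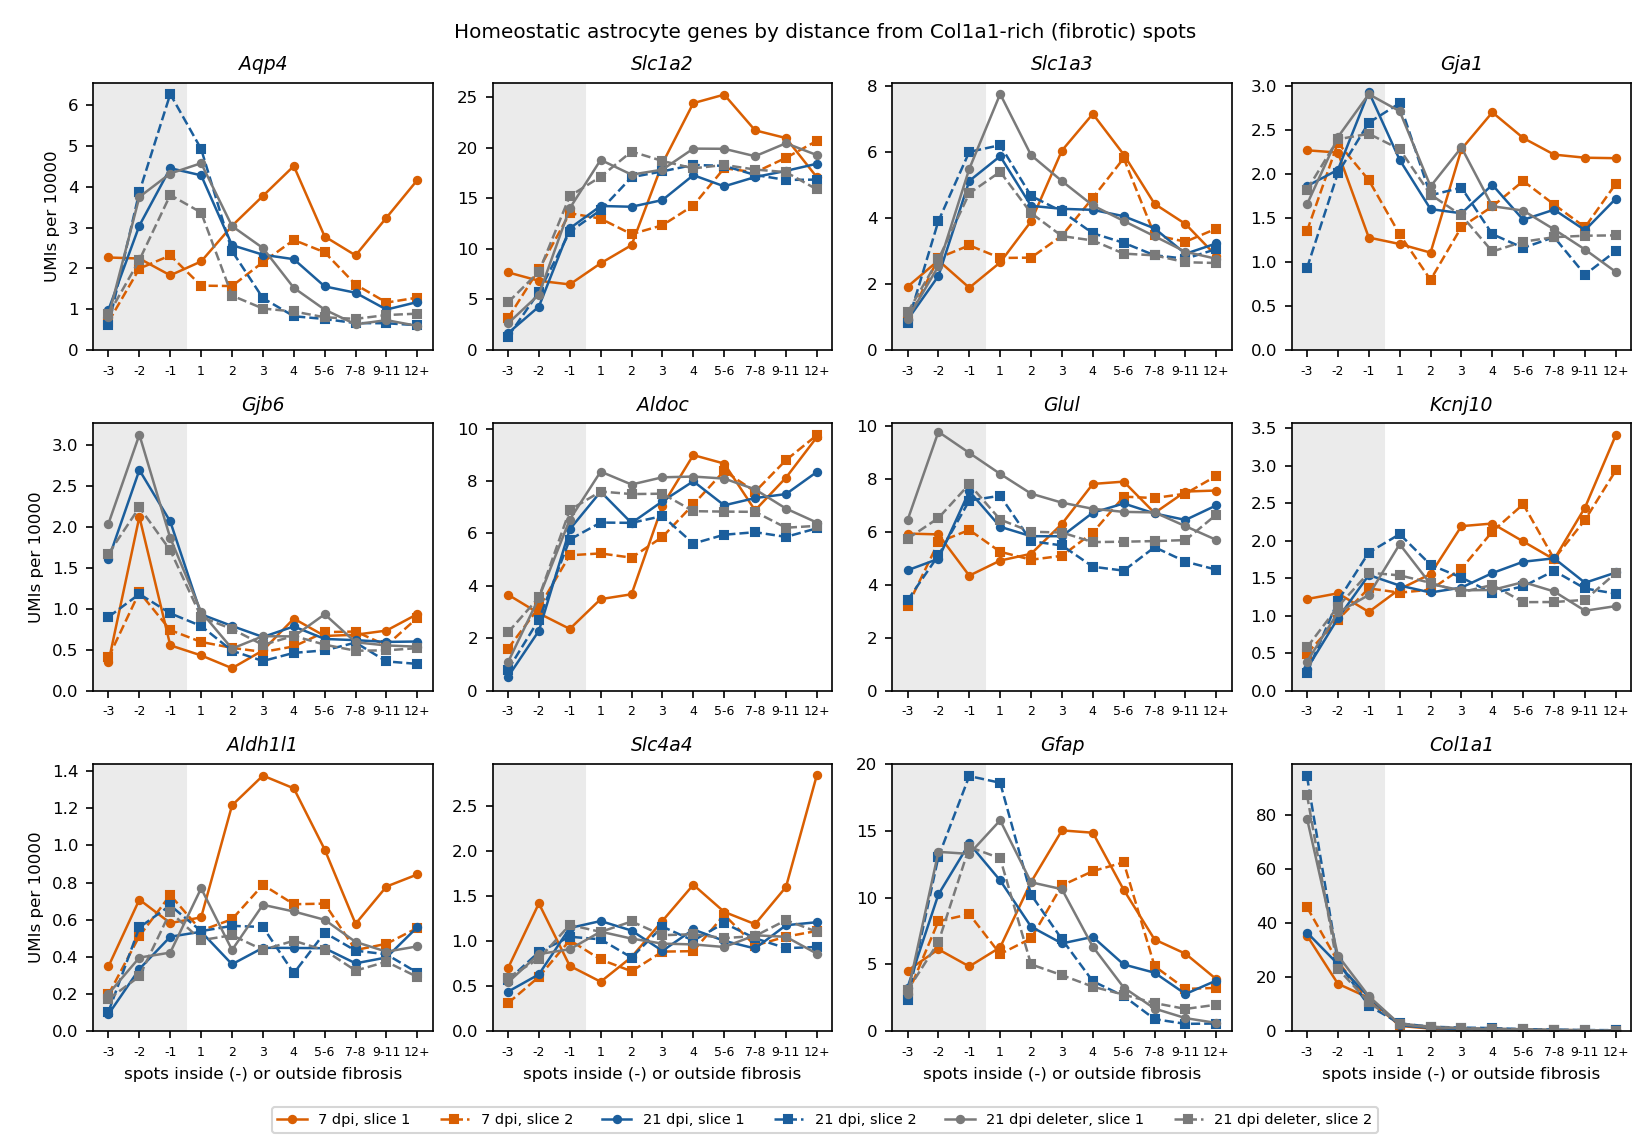
Level of the 10 members, Gfap and Col1a1 (UMIs per 10000) by distance in grid steps from the border of the fibrotic spots, with fibrotic spots on the grey ground at negative steps (-3 stands for 3 or more) and 1 line per slice. At 21 dpi Aqp4 dropped from 4.28 and 4.93 at 1 step to 1.18 and 0.607 at 12 or more. Slc1a2 instead climbed from 1.66 and 1.32 at -3 to 18.4 and 16.8 at 12 or more.

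Inside the fibrotic area the members fell off with depth, but not equally. Depth is the number of steps from a fibrotic spot to the nearest spot that is not fibrotic, and is given without a test, as it was chosen after seeing the data. Steps were counted to tissue spots only, so spots at the edge of the tissue can lie at 3 or more steps. Of the spots at 3 or more steps, 52.9% and 26.4% were edge spots at 21 dpi and 37.3% and 26.3% in the deleter slices. At 21 dpi Aqp4 went from 4.46 UMIs per 10000 at 1 step through 3.05 at 2 to 0.986 at 3 or more in slice 1, and from 6.27 through 3.88 to 0.607 in slice 2. Slc1a2 went from 12.0 through 4.29 to 1.66 and from 11.7 through 5.73 to 1.32. The high fibrotic level of Aqp4 at 21 dpi thus lay in the outer steps, where 4.46 and 6.27 also exceeded the levels 1 step outside (4.28 and 4.93), and at 3 or more steps it lay below that of far spots, which was 1.31 and 0.676. Gjb6 kept more of its level, at 2.07, 2.70 and 1.61 in slice 1 and 0.944, 1.18 and 0.900 in slice 2, above its far level at each depth. At 3 or more steps Glul was at 4.54 and 3.41, below its far level of 6.78 and 4.85 in both slices, and Gja1 was at 1.86 and 0.931, above its far level in slice 1 and below it in slice 2. In the deleter slices Aqp4 stood at 0.820 and 0.871, Slc1a2 at 2.63 and 4.71 and Gjb6 at 2.04 and 1.67 at 3 or more steps. The leptomeningeal markers summed to 124.9, 125.7 and 28.8 UMIs per 10000 over the 3 depths in slice 1 at 21 dpi and to 86.3, 68.8 and 24.8 in slice 2. At 7 dpi slice 2, with 187 spots at 3 or more steps, gave 0.692 for Aqp4 and 3.15 for Slc1a2 there. Slice 1 had only 13 such spots. Edge spots made up 35 of the 187 and 10 of the 13.

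The make-up of the members' UMIs changed with the zone in each of the 6 slices with a fibrotic area. Slc1a2 gave 39.7% to 47.8% of the UMIs of the 10 genes in far spots and 24.0% to 32.8% in fibrotic spots, with no overlap. Aqp4 gave 1.84% to 6.08% in far spots and 6.42% to 13.4% in fibrotic spots, again with no overlap between zones. The share of Gjb6 was 1.22% to 1.66% in far and 2.87% to 6.66% in fibrotic spots, and that of Glul 13.4% to 16.4% and 19.0% to 23.2%. Aldoc moved with Slc1a2, from 16% to 18.2% in far to 11.3% to 13.7% in fibrotic spots. As the shares add up to a whole, a lower share of Slc1a2 raises the others, and these shares compare a gene with itself between zones, as UMIs are not scaled for transcript length.

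**Figure D4:**
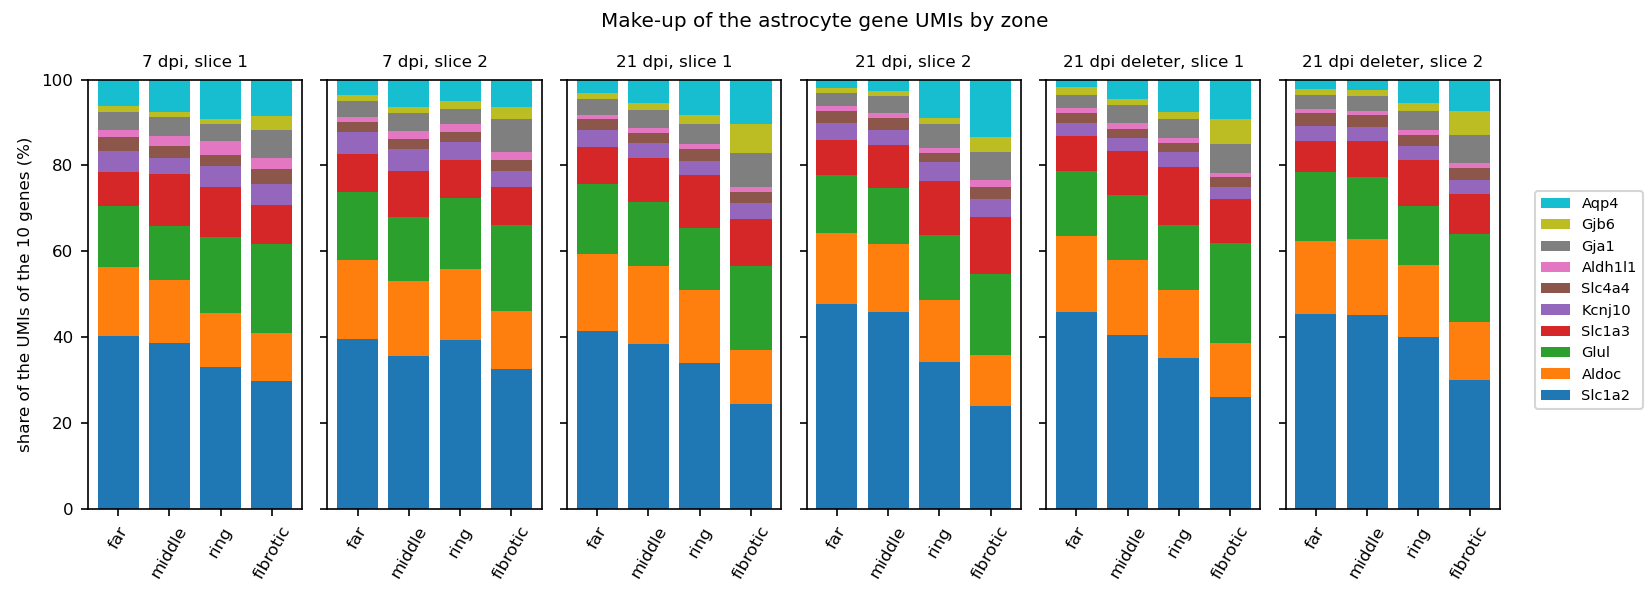
Share of each member in the summed UMIs of the 10 genes (percent, stacked to 100) in far, middle, ring and fibrotic spots of the 6 slices at 7 and 21 dpi. In each slice the bottom block, Slc1a2, shrank from far (39.7% to 47.8%) to fibrotic spots (24.0% to 32.8%), and the top block, Aqp4, grew.

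In the deleter slices Aqp4 was again higher at the lesion and Slc1a2 lower in fibrotic spots. Aqp4 was at 0.793 and 0.841 UMIs per 10000 in far, 3.93 and 2.46 in ring and 3.34 and 2.49 in fibrotic spots, and Slc1a2 at 19.8 and 17.2, 18.2 and 18.2, and 9.55 and 10.1. In fibrotic spots Aqp4 (1.76), Gja1 (0.81) and Gjb6 (1.68) were higher and Slc1a2 (-0.94) and Aldoc (-0.63) lower on the log2 scale, beside 29.7% of 14374 genes higher and 28.7% lower. In the ring Aqp4 (1.84), Slc1a3 (0.86) and Gja1 (0.68) were higher, beside 13% of genes higher and 7.97% lower. The difference from wild type at 21 dpi was called by edgeR for no member in fibrotic spots (0% of genes lower, 0% higher) or in the ring (0% lower, 0% higher), and none had an unadjusted p under 0.05 or was called by DESeq2 (fold change differences from -0.18 to 0.28, SE 0.19 to 0.40). With 2 slices against 2 this does not show that the genotypes act alike.

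Away from the fibrosis, each of the 10 members was lower at 21 than at 7 dpi by its fitted value, but none passed the test in edgeR. The median of the members was -0.47 on the log2 scale against 0.01 for all genes, from -1.28 for Aqp4 (SE 0.41, adjusted p = 0.80) to -0.20 for Slc1a2, beside 0.007% of 14285 genes called lower and 0.014% higher. DESeq2 called 43 genes and none of the members. At an unadjusted p under 0.05 in edgeR there were 4 members, all lower. All genes past that level were not counted, so the 4 have no background to be read against. At the tissue border, among far spots, edgeR called 0% of 12035 genes lower and 0% higher than in the interior, and no member. DESeq2 called 0 genes there too. In edgeR 2 members had an unadjusted p under 0.05, again without a count of all genes. Aqp4 had the largest member value there, 0.31 (SE 0.13, adjusted p = 0.66).

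At 2 dpi some members were above and others below their level at rest. There is 1 slice of each, so no test was made, and 95% intervals cover counting error only. Spots with at least 5000 UMIs were used, 715 at 2 dpi and 986 at rest. The level at 2 dpi was 2.68 times that at rest for Aldh1l1 (interval 2.43 to 2.96), 2.17 times for Aqp4 (2.03 to 2.33) and 1.61 times for Kcnj10 (1.51 to 1.72). It was 0.603 times for Slc1a2 (0.589 to 0.617), 0.781 for Gjb6, 0.785 for Gja1, 0.821 for Aldoc and 0.850 for Glul, with the upper limit of each interval under 1. Slc1a3, at 1.05, and Slc4a4, at 1.11, lay between these groups. Aldh1l1 and Aqp4 were thus the 2 members past 2-fold higher, where 10.6% of 12252 genes were, and no member was past 2-fold lower, where 2.33% were. Gfap and Vim were at 14.0 and 29.4 times their level at rest. In the 375 spots at 2 dpi with fewer than 1000 UMIs, Aqp4 was at 1.05 and Slc1a2 at 11.1 UMIs per 10000, against 1.85 and 9.43 in the spots used.

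**Figure D5:**
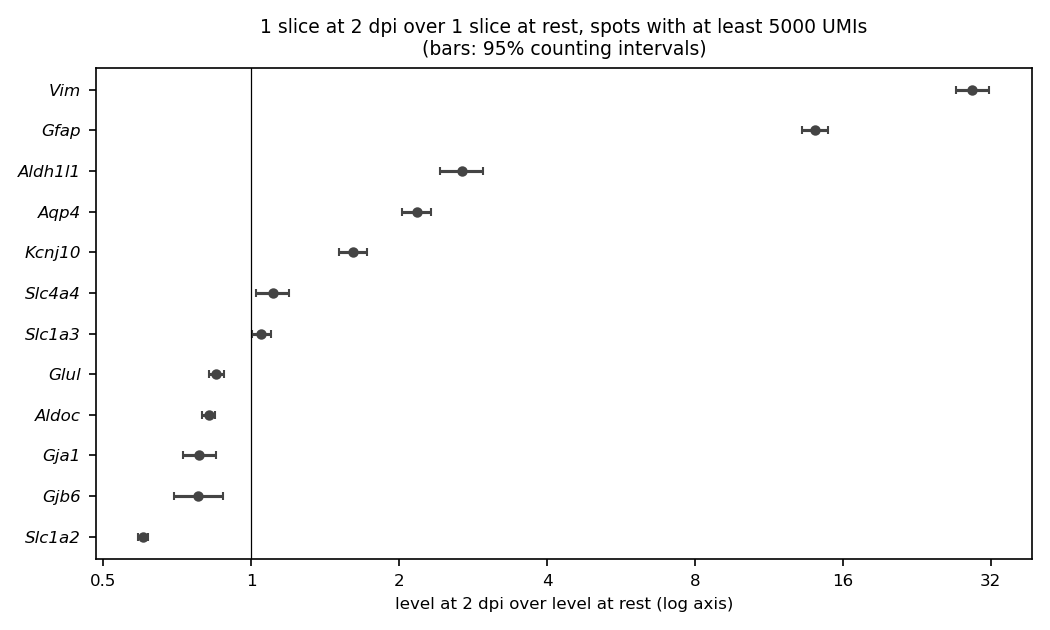
Level of each member, Gfap and Vim in the slice at 2 dpi over the slice at rest (log axis, bars for 95% counting intervals, spots with at least 5000 UMIs, 1 slice each). Aldh1l1, Aqp4 and Kcnj10 lie right of 1 and Slc1a2 farthest left, at 0.603.

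Other genes of resting astrocytes were lower around the lesion at 7 dpi too. Of 38 such genes outside the members, 26 fell and 3 rose in fibrotic spots and 19 fell and 2 rose in the ring, with medians of -0.94 and -0.57. Of all genes, 24.3% were lower and 25.4% higher in fibrotic spots and 11.2% and 14.6% in the ring. The largest falls in fibrotic spots were Slc7a10 (-2.33, SE 0.27), an amino acid transporter, Etnppl (-2.16), a phospholyase, and the GABA transporter Slc6a11 (-1.95), and these 3 also fell most in the ring (-1.41, -1.96 and -1.49). Mertk, a phagocytic receptor that macrophages also carry, rose by 1.38 and 1.27, and Chrdl1, a secreted BMP inhibitor, by 1.25 and 1.24. At 21 dpi 11 fell and 9 rose in fibrotic spots and 1 fell and 7 rose in the ring, with medians of 0.07 and 0.29. Of all genes, 26.3% were lower and 29.7% higher in fibrotic spots and 5.42% and 10.9% in the ring. The fibrotic counts at 21 dpi thus lay near the share of all genes. Slc7a10 (-2.51), Gpc5 (-1.97) and Slc6a11 (-1.84) had the largest falls in fibrotic spots, and beside Gjb2 the largest rises were Chrdl1 (2.07) and Mfge8 (2.04), a secreted bridge for phagocytosis. In the ring Gjb2 (1.76), Chrdl1 (1.54) and the transcription factor Sox9 (0.98) rose most. In the deleter slices 12 fell and 12 rose in fibrotic spots and 0 fell and 9 rose in the ring. Of all genes, 28.7% were lower and 29.7% higher in fibrotic spots, again near the counts there, and 7.97% and 13% in the ring. Slc7a10 (-1.79), Grm3 (-1.67) and Slc6a11 (-1.50) led the falls in fibrotic spots, and Gjb2 (4.54), Mfge8 (2.04) and Chrdl1 (1.74) the rises. In the ring Gjb2 (1.96), Chrdl1 (1.34) and Sox9 (1.18) led the rises.

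The tissue around these genes changed as well. In fibrotic spots all 12 neuronal markers fell at both times (medians -1.35 and -2.39). Of 20 genes listed as reactive astrocyte genes, 15 rose at 7 dpi and 20 at 21 dpi (medians 1.83 and 3.40). As many as 13 of 14 genes of microglia and macrophages rose at both times. No cell types were assigned to spots, so such counts do not say which cells held the RNA. Vim rose by 2.24 at 7 dpi (SE 0.32, adjusted p = 1e-04) and by 3.31 at 21 dpi (SE 0.34, adjusted p = 3.8e-06), while Gfap rose by 2.29 at 21 dpi (SE 0.40, adjusted p = 0.00033) and had -0.22 at 7 dpi (adjusted p = 0.66). Far spots differed in Gfap too. Without edge spots they held 6.91 and 6.10 UMIs per 10000 at 7 dpi, 4.16 and 1.05 at 21 dpi and 0.659 in the 1 slice at rest. Fold changes against far spots, above all at 7 dpi, are thus not changes from resting tissue. Of 8 genes listed as general astrocyte markers, 5 fell and 1 rose at 7 dpi and 1 fell and 3 rose at 21 dpi. Some of these are also among the other resting astrocyte genes above, so the lists are not independent. Of 10 oligodendrocyte genes, 10 fell in fibrotic spots and 9 in the ring at 7 dpi, and none passed the test in either zone at 21 dpi. Among 8 genes each, those of fibroblasts, one of which chose the spots, rose 8 and 8 times, oligodendrocyte precursors 3 and 4 (1 fell at 7 dpi), endothelial cells 4 and 5, pericytes and smooth muscle 5 and 6, and ependymal and choroid plexus cells 0 and 1, at 7 and 21 dpi. The fibrotic counts stand beside 24.3% of all genes lower and 25.4% higher at 7 dpi, and 26.3% and 29.7% at 21 dpi. The part of these shifts in the members' levels was not tested.

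Over the 16 zone sums of the 4 wild-type slices, the members fell into loose groups. The Pearson correlation of log2(CPM + 1), centred on each slice's mean and given without a p as the sums share slices and depth, was 0.97 between Slc1a2 and Aldoc and 0.93 between Aldoc and Kcnj10, and 0.72 between Aqp4 and Gja1 and 0.70 between Gja1 and Gjb6. For Slc1a2, Aldoc and Kcnj10 against Aqp4, Gja1 and Gjb6 it ran from -0.39 between Slc1a2 and Gjb6 to 0.31 between Kcnj10 and Gja1, with values of both signs. Between Slc1a2 and Aqp4 it was -0.16. These groups were picked from the same correlations, and the other members did not split so clearly. Glul, Slc1a3, Slc4a4 and Aldh1l1 had 0.88, 0.82, 0.82 and 0.64 with Kcnj10 and 0.63, 0.54, 0.41 and 0.27 with Gja1. With the members' mean (each gene scaled to the same spread), Slc1a3 (0.93) and Glul (0.93) correlated best and Aqp4 (0.54) and Gjb6 (0.23) least. Each member is itself part of this mean, which raises its value, unlike those of genes outside the members. Among 8081 genes with a mean of at least 20 CPM, the genes outside the members most like that mean were Tmem47 (0.97), Rida (0.97), Gstm1 (0.96), Mt3 (0.96), Ntrk2 (0.95), Gpr37l1 (0.95), Clu (0.94) and Myo6 (0.94).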

How the data were processed

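The authors aligned reads to mm10 with Space Ranger 2.0.0 and deposited UMI counts for each gene in each spot, not normalized. Of the deposited spot tables, which are other numbers, only array positions and tissue marks were used. Connected tissue pieces, exactly 2 per area, were taken as slices. The labels do not say which piece is at rest and which at 2 dpi, and the outlines in the study's maps assigned them.

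UMIs were summed per zone and slice (at least 5 spots) and tested with edgeR 4.0.16 in R 4.3.3 (TMM, filterByExpr, quasi-likelihood F test, Benjamini-Hochberg, threshold 0.05, slice as a block). The 4 wild-type slices shared 1 fit, and the deleter comparisons used 6 slices. SE is the size of the log2 fold change over the root of its F value. With the slice as a block, p-values rest on how much zone differences varied between slices, pooled over the groups of a fit. Only the comparison of far spots between times, which has no block, rests on the spread of levels between slices. Spots were not replicates. The scripts were tested on simulated data. Depth was 11332780 to 23677298 UMIs per slice, and intervals (95%, exact) cover counting error only.

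The members and lists were chosen with earlier results of these data known. Named genes were all 10 members, Col1a1, Gfap, Vim, the 8 genes most like the members' mean, and, of other homeostatic genes, the 3 largest falls and rises past the threshold per zone. DESeq2 1.42.0, other scalings, filters, zone rules and left-out slices were alternatives. No cell types were assigned to spots. 1 gene that this rule names is not reported here.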

Additional observations from a re-analysis of the deposited data

Results flagged for a closer look

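One result stood out because an effect differed between times by a test of the difference itself. The log2 fold change of Aqp4 in fibrotic against far spots was higher at 21 than at 7 dpi by 2.38 (SE 0.39, adjusted p = 0.035 in edgeR, n = 2 slices per time). This fold change was above 0 in 2 of 2 slices at 21 dpi and below 0 in 2 of 2 at 7 dpi. Over 16 alternatives the difference ran from 1.29 to 2.94 and passed the threshold in 11, with adjusted p from 9.6e-11 to 0.37. It missed the threshold without 7 dpi slice 1 (2.06, adjusted p = 0.37) or slice 2 (2.65, adjusted p = 0.17), with far spots at 7 or more steps (2.36, adjusted p = 0.083), with at least 10 Col1a1 UMIs per 10000 (1.86, adjusted p = 0.14) and in spots low in myelin genes (1.29, adjusted p = 0.24). Far spots entered this difference, as Aqp4 there had a fitted log2 change from 7 to 21 dpi of -1.28 (SE 0.41, adjusted p = 0.80 in edgeR). The difference is thus not a change in fibrotic spots alone. Time and capture area cannot be told apart in it.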

How the results depend on the processing

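The slice was a block in each fit of zones, so zones were compared within slices. No paired analysis was possible because the replicate numbers only name slices and no animal is shared between groups. Of 1940 values for single members under the alternatives, 1802 kept their side of the threshold, 44 lost a call and 93 gained one. In 1 a call had the opposite sign to the main value. Slc1a3 in fibrotic spots of the deleter slices, 0.14 on the log2 scale, was -0.57 (adjusted p = 0.012) with at least 10 Col1a1 UMIs per 10000. Changes of sign between values that passed no test are among the 1802. An example is Aqp4 in fibrotic spots at 7 dpi, which ran from -0.71 to 0.39.

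The counts of members called moved as follows, and the cause was not tested. For fibrotic spots, 21 minus 7 dpi, the count of 1 became 3 with DESeq2, 5 without a filter on low counts, 0 and 5 with at least 10 and at least 2 Col1a1 UMIs, 5 with fibrotic patches only, 0 with far at 7 or more steps, 3 without edge spots, 2 in spots low in leptomeningeal markers (chosen after seeing the data), 0 in spots low in myelin genes and 8 with the deleter slices added to 21 dpi. In the same order, all genes called went from 27 to 107, 532, 13, 918, 287, 8, 147, 106, 9 and 478. For the ring, 21 minus 7 dpi, 0 became 4 with DESeq2, 7 without the filter, 1 with at least 2 Col1a1 UMIs, 4 with patches only, 2 without edge spots and 8 with the deleter slices. All genes called there went from 3 to 64, 401, 40, 57, 30 and 271 in this order. With at least 2 Col1a1 UMIs the ring counts of 6 (7 dpi), 3 (21 dpi) and 3 (deleter) became 0, 1 and 1, and in spots low in myelin the first became 2 and the second 1. All genes called went from 3652, 2309 and 3009 to 1771, 593 and 208 with at least 2 Col1a1 UMIs. In spots low in myelin they were 3399 at 7 dpi and 171 at 21 dpi. The fibrotic deleter count of 5 became 8 with at least 10 Col1a1 UMIs, and far spots, 21 against 7 dpi, went from 0 to 1 without the filter. All genes called went from 8386 to 8416 in the former and from 3 to 132 in the latter. Leaving out 1 slice at a time, with the lone slice of that group assumed to vary like the others, gave 1 to 7 for the ring at 7 dpi, 1 to 3 at 21 dpi and in the deleter slices, 0 to 2 for fibrotic and 0 to 4 for ring spots, 21 minus 7 dpi. The ring call at 7 dpi that stayed without slice 1 was Aldoc, and without slice 2 it had 3.

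Counts over all genes moved more. Over the alternatives the 27 genes called for fibrotic spots, 21 minus 7 dpi, ranged from 0 (without either 7 dpi slice) to 918 (at least 2 Col1a1 UMIs), the 3 for the ring from 0 to 477 (without 21 dpi slice 1), and the 3 for far spots from 0 to 132 (no filter). The ring had 3652 genes at 7 dpi (658 without 7 dpi slice 1), 2309 at 21 dpi (171 in spots low in myelin, 5694 with the deleter slices) and 3009 in the deleter slices (208 with at least 2 Col1a1 UMIs). Fibrotic spots at 7 dpi had 7035 (3261 without slice 2). Deleter minus wild type had 0 in both zones, at most 5 and 6 without the filter. With 2 slices per group, small differences were not detectable, and zones of few spots, such as the 3 fibrotic spots at rest, give coarse levels.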
